A study of Arabidopsis thaliana with 8 samples.

Results

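The data described here are the later of 2 time points in a root wounding experiment on Arabidopsis thaliana, the 360 min comparison, and its arrays were chosen by the time after treatment that the labels give. They make up 4 of the 8 arrays of the series, which asks how wounding of the root is communicated to the shoot. Each is a 2-colour Agilent oligonucleotide array on which RNA from shoots of root-wounded seedlings was set against RNA from shoots of unwounded seedlings. The root-wounded seedlings were wild type, ecotype Columbia-0, 13 days old and grown on sucrose agar, with the primary root cut by a razor blade 5 mm from the base of the shoot and the shoots harvested 360 min later. The unwounded seedlings had the same ecotype, age, medium and harvest time and an uncut root. The other 4 arrays hold the same comparison 30 min after the cut, with unwounded shoots of their own. Both times had 2 biological replicates, each measured on a pair of arrays with the dyes exchanged. Therefore n = 2 throughout, the SD is that of the 2 pair means, and a gene with 1 usable pair is given without an SD. The labels call the replicates biological but give no number of seedlings per sample. The p-values thus measure the spread between these few samples, pooled over both times, and not that of the 360 min replicates alone.

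Jasmonate is a lipid-derived hormone that plants make after wounding, in tissue near the wound and, in many species, in distant organs. Its isoleucine conjugate brings the receptor COI1 to the JAZ repressors, whose removal frees MYC transcription factors to turn on jasmonate synthesis, defence and storage protein genes. Shoots also answer stress with heat shock factors, which drive the genes of protein-folding chaperones, and with anthocyanins, pigments made at the end of the flavonoid pathway. Much of the nitrate taken up by the root is reduced in leaves, by nitrate reductase and nitrite reductase.

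The probes of all 8 shoot marker genes were well above background in both channels of all 4 arrays. Their summed signals were 163868 to 247131 in wounded and 147434 to 227663 in unwounded shoots, and the higher sum lay in the Cy3 channel on every array. Of 13 root marker genes, 12 or 13 were well above background on each array in wounded and in unwounded shoots, with summed signals of 3966 to 4956 in wounded and 3863 to 5133 in unwounded shoots. Among the 11 root markers tested, the peroxidase gene AT4G11290 was lower, with a log2 fold of -0.38 ± 0.11 (limma, Benjamini-Hochberg adjusted p = 0.0476), and the other 10 did not pass. Of the shoot markers, ELP fell, with -0.39 ± 0.024, as did RCA, described with Rubisco, and RBCS1A passed as higher but was saturated on all 4 arrays. In whole shoots, fewer cells of a type and less RNA per cell cannot be told apart. With so few arrays, the precision of each value is limited by their number.

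Ratios are given as log2 of wounded over unwounded shoots, and a gene is said to have risen or fallen where limma's Benjamini-Hochberg adjusted p was under 0.05 over all genes tested. Of 19146 genes tested, 1398 changed (7.3%): 590 rose (3.08%) and 808 fell (4.22%). The changes were mostly small, with a median absolute log2 fold of 0.32 among the genes that changed and 0.057 among all genes. Those changed by 1.5-fold or more were 137 that rose and 79 that fell. Of the genes that changed, 1351 had the same sign on all 4 arrays, 571 higher (2.98%) and 780 lower (4.07%), and 44 rested on 1 replicate. For those 44 the measured spread behind the p-value comes from the 30 min arrays. Across 17660 genes the 2 replicates had a Pearson correlation of 0.66, and genes are not independent replicates. The array of replicate 1 with wounded RNA in Cy3 stood apart. Its ratios correlated at 0.32 with those of its own dye swap and at 0.29 and 0.38 with the replicate 2 arrays, whereas the replicate 2 pair correlated at 0.56. Outlier spots, left out of the folds, were kept in these correlations and in the counts of signs. The replicate 1 arrays had 816 and 888 such spots and the replicate 2 arrays 158 and 105. Without the replicate 1 array with wounded RNA in Cy3, 745 genes rose and 1178 fell. This fit called 1923 genes, against 1398 with all 4 arrays, so its list counts stand beside a larger total. Its replicate 1 rests on 1 array without a dye swap, so a dye effect is not averaged out there. In that fit, an alternative chosen after seeing the data, the genes of the main lists that rose were 12 of jasmonate output, 7 of late anthocyanin synthesis, 13 for small heat shock proteins, 17 for larger chaperones and 7 for heat shock factors. Those that fell in it were 10 of nitrate uptake and assimilation, 12 for xyloglucan endotransglucosylases, 5 for type-A response regulators and 75 for cytosolic ribosomal proteins. The counts with all 4 arrays are given with each list. On the authors' own log ratios 130 genes passed (0.679%), of which 74 were higher and 56 lower. A fit of the 360 min arrays without those of 30 min gave 79 (0.413%).

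**Figure D1:**
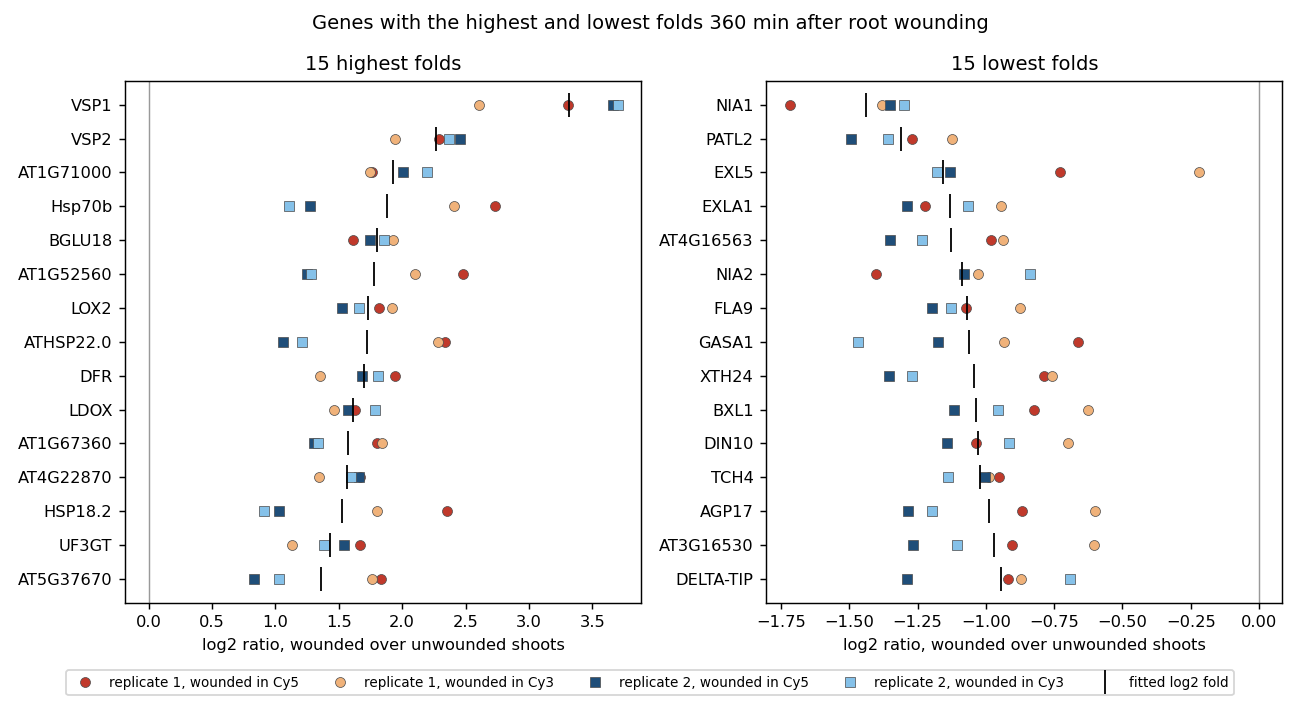
Log2 ratios of wounded over unwounded shoots on each of the 4 arrays (x axis) for the 15 genes with the highest and the 15 with the lowest folds at 360 min that passed and had the same sign on every array. Circles are replicate 1 and squares replicate 2, and the bar is the fitted log2 fold, from 3.32 for VSP1 down to -1.44 for NIA1. For BGLU18, EXL5, BXL1 and DIN10 a pair with an outlier spot is drawn but was left out of the fold.

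The highest fold among the genes that passed belonged to VSP1 (AT5G24780), which encodes a vegetative storage protein, an acid phosphatase-like protein that accumulates in leaves under jasmonate. Its signals were 990.5, 629, 1148 and 1053 in wounded shoots on the 4 arrays, against 99.9, 103, 90.7 and 81 in unwounded shoots. These 4 values, and those of every gene below, follow the order replicate 1 with wounded RNA in Cy5, replicate 1 with it in Cy3, replicate 2 with it in Cy5 and replicate 2 with it in Cy3. All wounded values lay far above all unwounded ones. The log2 ratios were 3.31, 2.61, 3.66 and 3.70, a 9.98-fold rise (log2 fold 3.32 ± 0.51, limma, Benjamini-Hochberg adjusted p = 0.00196). These folds were computed with an offset of 50 added to the signals, which lowers the fold of dim genes, and on the authors' log ratios, without that offset, VSP1 had a log2 fold of 3.97. Its relative VSP2 (AT5G24770), for the second storage protein, had 1690.2, 1305, 1686 and 1617 in wounded shoots, against 346, 338, 307 and 313 in unwounded shoots. The groups did not overlap, and the log2 fold was 2.27 ± 0.21 (adjusted p = 0.00104).

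Both storage protein genes belong to a list of 22 tested jasmonate output genes, of which 12 rose, 1 fell and 9 did not pass, beside 3.08% and 4.22% of all genes. The list's median log2 fold was 0.40, against 0.0046 over all genes, and it was 0.25 in replicate 1 and 0.53 in replicate 2. Next after the storage protein genes came BGLU18 (AT1G52400), for a beta-glucosidase of endoplasmic reticulum bodies, at 1.80 in 1 usable replicate, and TSA1 (AT1G52410), for a protein of the same bodies, at 1.20 ± 0.041. CORI3, a cystine lyase gene known for its induction by coronatine and jasmonate, rose by 1.10 ± 0.088. The jacalin-lectin gene JAL35 rose by 1.15 ± 0.16 and its relative JAL23 by 0.53 ± 0.28, while a further relative, JAL22, had 0.081 ± 0.46 (adjusted p = 0.816). MBP1 and MBP2 encode binding partners of myrosinase, the enzyme that breaks down glucosinolates. MBP1 rose by 0.65 ± 0.066, MBP2 by 0.27 ± 0.027 and ESP, an epithiospecifier gene, by 0.76 ± 0.15. NATA1, for an ornithine acetyltransferase of defence, rose by 0.87 ± 0.37, and CLH1, a chlorophyllase gene, by 0.70 ± 0.027. NATA1 and JAL23 were dim, with mean unwounded signals of 62.8 and 72.5, and their log2 folds on the authors' log ratios were 1.89 and 1.18, neither of which passed.

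Defence genes known to need ethylene together with jasmonate did not pass as higher. PDF1.2A, PDF1.2b and PDF1.2c, for plant defensins, had log2 folds of -0.34 ± 0.11, -0.072 ± 0.058 and -0.066 ± 0.024, with adjusted p-values of 0.103, 0.39 and 0.434 in limma's test. HCHIB, a basic chitinase gene, had 0.042 ± 0.16. PR4, a hevein-like gene, fell, with ratios of -0.60 and -0.33 on the replicate 1 arrays and -0.56 and -0.19 on the replicate 2 arrays and a log2 fold of -0.42 ± 0.067 (adjusted p = 0.0208). Its wounded and unwounded signals overlapped between arrays. The remaining members that did not pass were THI2.1, a thionin gene, at 0.017 ± 0.074, ESM1, an epithiospecifier modifier gene, at 0.12 ± 0.12, the tyrosine aminotransferase gene TAT3 at -0.16 ± 0.19 and the lectin gene AT3G15356 at -0.69 ± 0.49. On the authors' log ratios 9 output genes rose and 0 fell, and with the 360 min arrays alone 8 rose.

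Among the genes that make and sense jasmonate, LOX2 had the highest fold and most others did not pass. Of 15 tested jasmonate synthesis genes 4 rose and 0 fell (26.7% called, against 7.3% of all genes), with a list median of 0.13. LOX2, the chloroplast lipoxygenase gene at the head of the pathway, had 17695, 17832, 14492 and 16878 in wounded shoots, against 5015, 4721, 5042 and 5339 in unwounded shoots, and rose 3.32-fold (log2 fold 1.73 ± 0.20, adjusted p = 0.00125). AOS, for the allene oxide synthase that acts next, had ratios of 1.01 and 0.78 on the replicate 1 arrays and 0.87 and 0.72 on the replicate 2 arrays and rose by 0.85 ± 0.071 (adjusted p = 0.00199). The groups did not overlap for either gene. AOC4, an allene oxide cyclase gene, rose by 0.47 ± 0.024 and OPCL1, for a ligase of the peroxisomal steps, by 0.49 ± 0.032, while LOX3, LOX4 and OPR3, the reductase gene, had 0.057 ± 0.076, 0.071 ± 0.00072 and 0.27 ± 0.054 (adjusted p = 0.733, 0.704 and 0.119). Among 17 signalling genes 4 rose and 0 fell (23.5% called). The factor genes were MYC2 at 0.72 ± 0.040 and JAM1, a repressor of the MYC type, at 0.32 ± 0.15. The repressor genes were JAZ1 at 0.54 ± 0.11 and JAZ12 at 0.33 ± 0.022. The other JAZ genes tested ran between -0.0090 for JAZ4 and 0.28 for JAZ2 and did not pass, and COI1, the receptor gene, had 0.022 ± 0.075. Of 9 genes of jasmonate turnover 0 rose and 0 fell by limma, with folds from -0.28 for CYP94C1 to 0.26 for CYP94B1, both hydroxylase genes of the active conjugate. With the authors' log ratios 2 synthesis genes and 1 signalling gene rose.

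**Figure D2:**
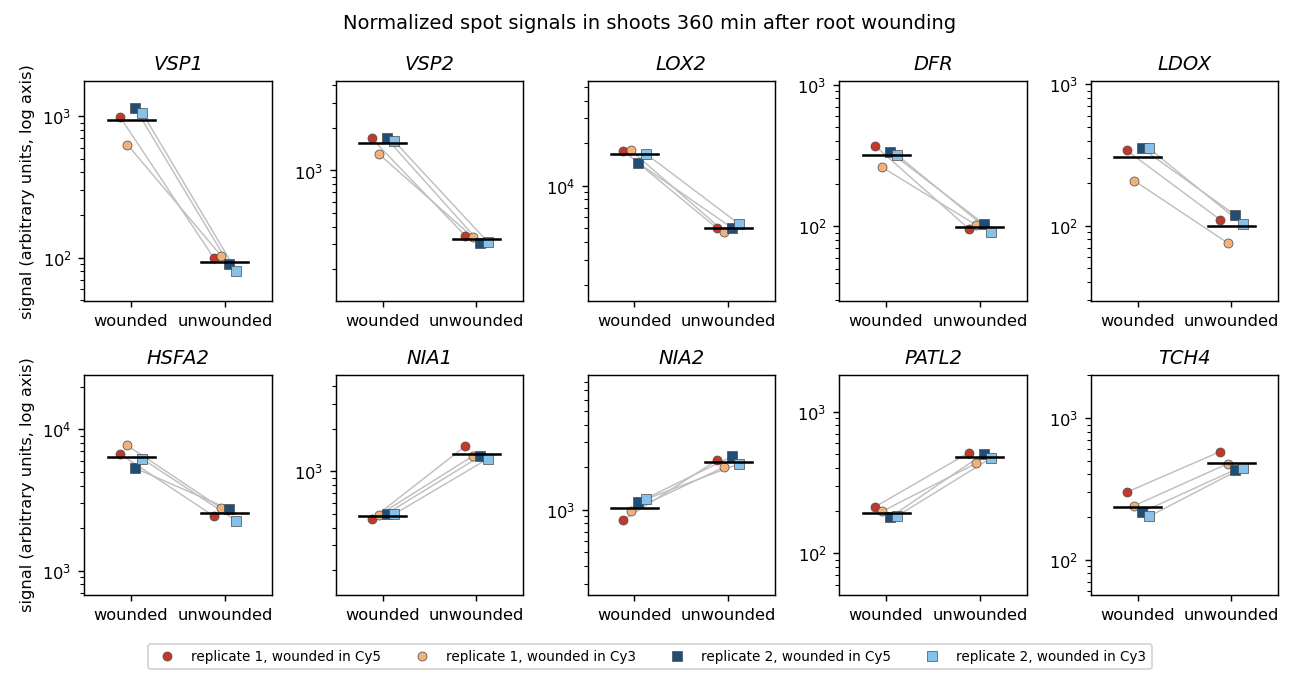
Normalized spot signals (log axis, arbitrary units, comparable within a panel only) of 10 genes in wounded (left) and unwounded (right) shoots 360 min after root wounding. Each line joins the 2 channels of an array and the bars are geometric means of the 4 arrays; in each panel the wounded and unwounded signals do not overlap, as for VSP1, with means of 932 and 93.3.

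Genes for the last enzymes of anthocyanin synthesis rose as a near-complete group. Of 8 tested, 7 rose and 0 fell (87.5% called, against 7.3% of all genes). The median log2 fold was 0.98 and the replicate medians were 0.93 and 1.04. DFR, for the dihydroflavonol reductase that opens the anthocyanin branch, had signals of 372, 261, 336 and 318 in wounded shoots, against 96.4, 102, 104 and 90.9 in unwounded shoots. LDOX, for the anthocyanidin synthase that acts next, had 341, 209, 354 and 352 in wounded shoots, against 110.3, 75.5, 119 and 102 in unwounded shoots. Wounded and unwounded values were fully apart for both genes, and the replicate 1 array with wounded RNA in Cy3 gave the lowest wounded value of each. DFR rose 3.24-fold (log2 fold 1.70 ± 0.069) and LDOX 3.06-fold (log2 fold 1.61 ± 0.093), each with an adjusted p of 0.000827 by limma. A gene with the same description as LDOX, AT4G22870, rose by 1.57 ± 0.087, and signal shared between copies of like sequence was not tested.

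The sugar- and acyl-transferring steps followed in size. UF3GT, a xylosyltransferase gene, had ratios of 1.67, 1.13, 1.54 and 1.38 on the 4 arrays and rose by 1.43 ± 0.045 (adjusted p = 0.000827). GSTF12, for the glutathione transferase that carries the pigment to the vacuole, rose by 1.22 ± 0.034, AT5MAT, a malonyltransferase gene, by 0.75 ± 0.11 and UGT78D2, a glucosyltransferase gene, by 0.49 ± 0.078. scpl10, for an acyltransferase of the serine carboxypeptidase type, rose by 0.26 ± 0.092. The 1 member that did not pass was the glucosyltransferase gene AT4G14090 at 0.18 ± 0.048 (adjusted p = 0.129). Of the 8, 3 rose when the authors' log ratios were used and 4 with the 360 min arrays alone.

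The earlier flavonoid enzymes, which also feed flavonols, had 3 of 12 tested members that rose (25%, against 3.08% of all genes). These were F3H, for flavanone hydroxylase, at 0.57 in 1 usable replicate, F3'H, for flavonoid hydroxylase, at 0.50 ± 0.12 and CHIL, a chalcone isomerase-like gene, at 0.38 ± 0.090. F3H had ratios of 0.19, 0.37, 0.59 and 0.55, of which the replicate 1 pair was left out for an outlier spot, and with that spot kept its log2 fold was 0.43 and did not pass. The early list's median was 0.078, and the difference between early and late enzymes was not tested. Among 12 regulators 2 rose and 2 fell (33.3% called, against 7.3% of all genes). PAP1 (AT1G56650), for the MYB factor that activates anthocyanin genes, had 394, 475, 252 and 244 in wounded shoots, against 122, 213, 126 and 98.2 in unwounded shoots, with no overlap and a log2 fold of 1.29 ± 0.19 (adjusted p = 0.00199). Its partner gene TT8 rose by 0.24 ± 0.074, and its homologues PAP2, MYB113 and MYB114 had 0.047 ± 0.049, 0.010 ± 0.0036 and 0.043 ± 0.18. LBD38 and LBD39, for factors known to repress anthocyanin genes when nitrate is ample, fell, with log2 folds of -0.37 ± 0.018 and -0.55 ± 0.20.

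Small heat shock protein genes had higher signals in wounded shoots on every array, with larger ratios in replicate 1 than in replicate 2. All 14 small heat shock protein genes tested had positive ratios on all 4 arrays, against 12.3% of all genes. Of them 8 rose and 0 fell (57.1% called, against 7.3% of all genes). Their median log2 fold was 0.99, with 1.43 in replicate 1 and 0.54 in replicate 2. The medians on the 4 arrays were 1.48, 1.35, 0.57 and 0.59. Small heat shock proteins hold unfolding proteins in a state from which they can be refolded. AT1G52560, described on the array as a putative chloroplast member, had ratios of 2.48 and 2.10 on the replicate 1 arrays and 1.25 and 1.28 on the replicate 2 arrays (log2 fold 1.78 ± 0.73, adjusted p = 0.015). ATHSP22.0, for a member of the endoplasmic reticulum, rose by 1.72 ± 0.83, HSP18.2, for a cytosolic one, by 1.52 ± 0.78, AT5G37670 by 1.36 ± 0.61 and HSP21, for the plastid one, by 0.96 ± 0.55. In each of these the replicate 1 arrays were the higher pair. Limma's test pooled the spread of both times, and at 30 min the SD was 0.027 for AT1G52560 and 0.0067 for ATHSP22.0. The list's median signals at 30 min were 101 in wounded and 96.7 in unwounded shoots.

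**Figure D3:**
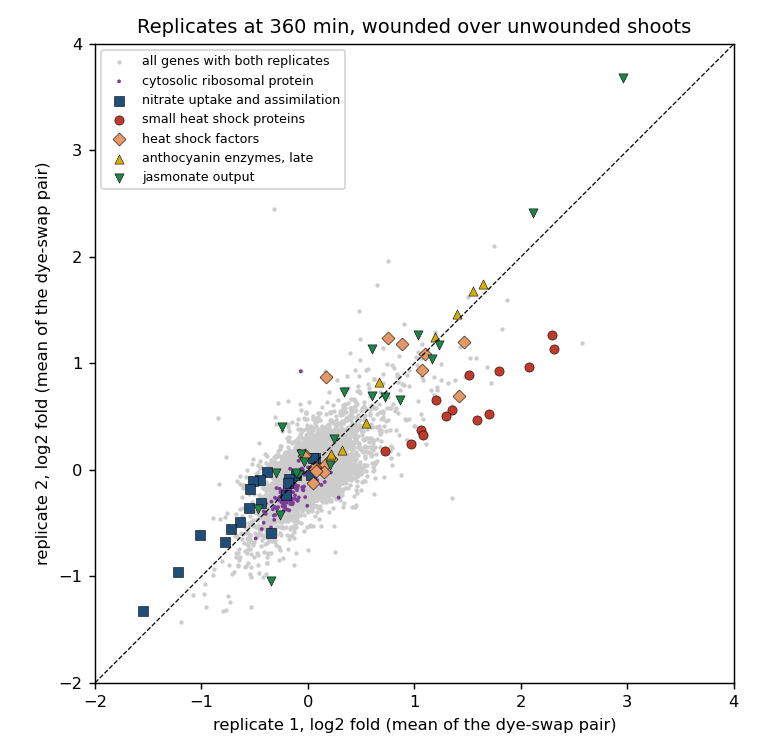
Log2 folds of wounded over unwounded shoots at 360 min in replicate 2 (y axis) against replicate 1 (x axis), each the mean of a dye-swap pair, for 17660 genes (grey) with 6 gene lists marked. The dashed line is equality: small heat shock protein genes lie below it, with list medians of 1.43 and 0.54 in replicates 1 and 2, and late anthocyanin genes lie along it.

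Among 26 genes for larger chaperones and their partners 13 rose and 0 fell (50% called, against 7.3% of all genes), with a median of 0.33. Hsp70b, for an inducible chaperone of the HSP70 class, had 2309, 1644, 757 and 716 in wounded shoots, against 347, 309, 314 and 333 in unwounded shoots. The unwounded values were near-equal and the wounded values of replicate 1 were the higher pair, which gave a log2 fold of 1.88 ± 0.98 (adjusted p = 0.0259). That p-value pools the spread of both times, and at 30 min the SD was 0.010 at mean signals of 92.5 and 99.1. With the 360 min arrays alone Hsp70b did not pass (limma, adjusted p = 0.112). AT1G71000, for a DnaJ-type partner of HSP70, varied less, with ratios of 1.76, 1.74, 2.01 and 2.20 and a log2 fold of 1.93 ± 0.25 (adjusted p = 0.00125). HSP101, for the disaggregase that rescues aggregated proteins, rose by 1.06 ± 0.35, its plastid and mitochondrial relatives CLPB3 and CLPB4 by 0.96 ± 0.56 and 0.93 ± 0.40, and HSP90.1 by 0.57 ± 0.21. The cytosolic HSC70-1, known as a constitutive member, had 0.11 ± 0.068 and did not pass. Of 9 genes for folding in the endoplasmic reticulum 0 rose and 0 fell by limma, with a median of 0.19, 0.36 in replicate 1 and 0.023 in replicate 2.

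Among 18 heat shock factor genes and related regulators 7 rose and 0 fell (38.9% called, against 7.3% of all genes). HSFA2, for a factor that prolongs the heat shock response, had 6699.7, 7682, 5315 and 6176 in wounded shoots, against 2438, 2769.8, 2737 and 2262 in unwounded shoots. The groups did not overlap, and the log2 fold was 1.33 ± 0.18 (limma, adjusted p = 0.00195). MBF1C, a coactivator gene of heat tolerance, rose by 1.09 ± 0.0037, with ratios of 1.19, 1.00, 1.06 and 1.12. HSFA7A rose by 1.00 ± 0.094, HSFA7B by 0.92 in 1 usable replicate, HSFB1 by 1.06 ± 0.51, HSFB2A by 1.03 ± 0.21 and DREB2A, for a factor of heat and drought responses that acts on HSFA3, by 0.99 ± 0.34. HSFA7B had ratios of 1.21, 0.62, 0.27 and 0.48, and its replicate 2 pair was left out for an outlier spot. With that spot kept its log2 fold was 0.64 and did not pass, and on the authors' log ratios it was 1.77 and passed. The 4 genes of class A1, known as the constitutive starters of the response, had 0.035 ± 0.025 for HSFA1A, 0.045 ± 0.026 for HSFA1B, 0.035 ± 0.063 for HSFA1D and 0.065 ± 0.12 for HSFA1E and did not pass. HSFB2B had 0.52 ± 0.50 and HSFA3 0.16 ± 0.079, and the other 5 ran from -0.036 for HSFA6A to 0.10 for DREB2B.

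Many chaperone genes and some heat shock factor genes were also high in the unwounded shoots of 360 min. Median unwounded signals of small heat shock protein and larger chaperone genes were 899 and 1205 at 360 min, against 96.7 and 210 at 30 min. For the heat shock factor list the medians lay closer, at 191 and 146. HSFA2 averaged 6411 in wounded and 2543 in unwounded shoots at 360 min, against 245 and 239.9 at 30 min. For HSP101 the means were 8662 and 4147 at 360 min, against 93.7 and 92.5 at 30 min. Whether this high unwounded level bears on the folds was not tested. Of the small heat shock protein genes, 0 of 14 passed on the authors' log ratios, where their median was 1.06, and 0 with the 360 min arrays alone. Without replicate 1 or without replicate 2 at 360 min, 12 and 14 did, but those fits take their spread from the 30 min arrays and leave out the difference between the 360 min replicates. Of the larger chaperone genes 1 rose on the authors' log ratios and 2 with the 360 min arrays alone, and of the heat shock factor genes 5 and 3.

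Genes for proteins that protect cells in cold and drought were higher in part. Of 23 tested 8 rose and 0 fell (34.8% called, against 7.3% of all genes), with a median of 0.23. COR15A and COR15B, for plastid proteins that protect membranes on freezing, had ratios of 1.05, 0.99, 1.10 and 1.01 and of 0.85, 1.06, 0.95 and 0.93 on the 4 arrays. Their log2 folds were 1.04 ± 0.027 and 0.95 ± 0.0096 (adjusted p = 0.00802 and 0.005), and 4 of 4 arrays were positive for both. COR413IM1, for a protein of the plastid inner membrane, rose by 0.72 ± 0.046, RD20, for a lipid-droplet protein of drought, by 1.35 ± 0.86, KIN2 by 0.84 ± 0.058 and GolS1, for the galactinol synthase of raffinose synthesis, by 1.27 ± 0.64. RD29A, RD29B and RAB18, classical targets of abscisic acid, had 0.23 ± 0.59, 0.11 ± 0.082 and 0.17 ± 0.64 and did not pass. Among 15 regulators of these responses 2 rose (13.3% called), the proline synthesis gene P5CS1 by 0.76 ± 0.38 and the abscisic acid factor gene ABF3 by 0.55 ± 0.27. None of the 15 passed on the authors' log ratios, with the 360 min arrays alone or when arrays were centred on the median. The median of the 23 protein genes was 0.16 in replicate 1 and 0.54 in replicate 2. On the authors' log ratios 2 of the 23 passed.

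Genes of the synthesis of aliphatic glucosinolates, methionine-derived defence compounds of the cabbage family, were higher in part. Of 20 tested 7 rose and 0 fell (35% called, against 7.3% of all genes), with a median of 0.13. MAM1, for the synthase that starts elongation, had ratios of 0.66, 0.61, 0.56 and 0.61 and rose by 0.61 ± 0.037 (adjusted p = 0.005). The isopropylmalate isomerase and dehydrogenase genes IPMI1, IPMI2 and IMD1 rose by 0.26 ± 0.063, 0.33 ± 0.083 and 0.56 ± 0.040, and CYP79F1 and CYP83A1, for the oxidases of the core structure, by 0.33 ± 0.11 and 0.29 ± 0.052. The regulators MYB28, MYB29 and MYB76 had -0.030 ± 0.14, -0.050 ± 0.059 and -0.015 ± 0.015 and did not pass. Among 14 genes of indole glucosinolates and tryptophan 2 rose and 1 fell (21.4% called). CYP79B2 rose by 0.34 ± 0.072 and TRP1 by 0.26 ± 0.044. SUR1, for a C-S lyase shared by both branches, fell, with -0.33 ± 0.072. Of the aliphatic genes 1 passed on the authors' log ratios, and 1 with the 360 min arrays alone.

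Of 43 genes for antenna proteins and photosystem subunits, 16 rose and 0 fell (37.2% called, against 7.3% of all genes). The median was 0.19, with 0.16 in replicate 1 and 0.23 in replicate 2. Split by role after the values were seen, 10 of 20 antenna genes rose, 5 of 12 of photosystem I and 1 of 11 of photosystem II. The antenna gene CAB2 had ratios of 0.65, 0.48, 0.93 and 0.69 and rose by 0.69 ± 0.18, LHB1B1 by 0.54 ± 0.051 and LHCB4.2 by 0.44 ± 0.026 (limma, adjusted p = 0.00896, 0.0096 and 0.00975). LHB1B1 was saturated on 1 array in wounded and on 1 in unwounded shoots, and RCA on 1 array in unwounded shoots, so the ratios of those arrays are not exact. RCA, for the activase of Rubisco, fell, with -0.29 ± 0.11, and RBCS2B, a gene of its small subunit, with -0.33 ± 0.042. RBCS1A was saturated in both channels of all 4 arrays and is given no fold. It counts among the genes that rose, although its ratios had the sign of the fold on only 2 of the 4 arrays. None of the 43 passed on the authors' log ratios or with the 360 min arrays alone, where the medians were 0.18 and 0.19, and 5 passed when arrays were centred on the median in place of loess.

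**Figure D4:**
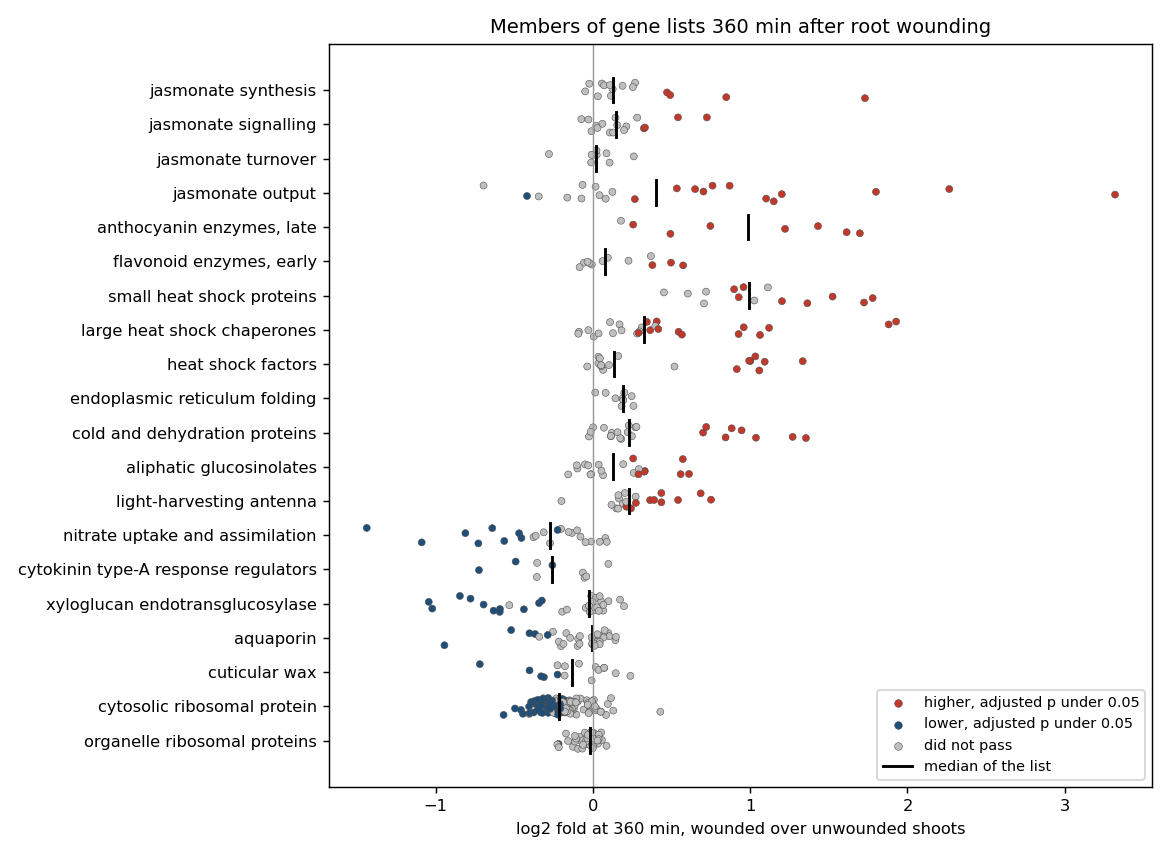
Log2 folds of wounded over unwounded shoots at 360 min (x axis) for each tested member of 20 gene lists, red where higher and blue where lower at an adjusted p under 0.05. The black bars are list medians, from -0.27 for nitrate uptake and assimilation to 0.99 for small heat shock proteins.

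The lowest fold among the genes that passed belonged to NIA1 (AT1G77760), for a nitrate reductase. Its signals were 458, 492, 501 and 498 in wounded shoots, against 1509, 1282, 1279 and 1226 in unwounded shoots. The second nitrate reductase gene, NIA2 (AT1G37130), had 847, 980.2, 1128 and 1184 in wounded shoots, against 2239, 2002, 2384 and 2119 in unwounded shoots. In both genes every wounded value lay below every unwounded one, and replicate 1 with wounded RNA in Cy5 showed the largest drop. NIA1 fell 2.71-fold (log2 fold -1.44 ± 0.16, adjusted p = 0.00333) and NIA2 2.13-fold (log2 fold -1.09 ± 0.18, adjusted p = 0.005).

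These 2 genes belong to a list of 23 for nitrate uptake and assimilation, of which 9 fell and 0 rose (39.1% called, against 7.3% of all genes). The median was -0.27, with -0.45 in replicate 1 and -0.12 in replicate 2. NIR1, for the nitrite reductase that takes over from nitrate reductase, had ratios of -1.14, -0.88, -0.64 and -0.57 and fell, with -0.81 ± 0.29. UPM1, for an enzyme that makes the sirohaem cofactor of nitrite reductase, fell with -0.64 ± 0.12. G6PD3, for a plastid dehydrogenase that supplies reducing power, fell with -0.45 ± 0.13 but was negative on only 3 arrays. Its ratios were -1.10 and 0.0058 on the replicate 1 arrays and -0.37 and -0.35 on the replicate 2 arrays. The SD, taken from pair means, leaves out this gap between the dyes of replicate 1. In ammonium assimilation GLT1, the NADH-dependent glutamate synthase gene, fell with -0.56 ± 0.10, ASN2, for an asparagine synthetase, with -0.73 ± 0.067, and the glutamate dehydrogenase genes GDH1 and GDH2 with -0.22 ± 0.023 and -0.47 ± 0.18. The genes for plastid glutamine synthetase and ferredoxin-dependent glutamate synthase, GLN2 and GLU1, had -0.10 and -0.13 ± 0.065 and did not pass.

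Transporter genes of the list did not pass. NRT1.1, for the dual-affinity nitrate transporter and sensor, was the lowest of them, with ratios of -0.54, -0.34, -0.40 and -0.22 and a log2 fold of -0.38 ± 0.093 (adjusted p = 0.164). NRT2.1, NRT2.2, NRT1.5, NRT1.8 and the partner gene NRT3.1 ran from -0.15 for NRT3.1 to 0.080 for NRT2.1. The remaining members that did not pass, RFNR1, RFNR2, FD3, G6PD2, AT5G41670 and ASN1, of which the first 5 concern reducing power, ran from -0.36 for RFNR1 to 0.088 for ASN1. Among 15 regulators of nitrate responses 5 fell and 0 rose (33.3% called, against 7.3% of all genes). They were BT2, for a scaffold protein of nitrogen responses, at -0.76 ± 0.31, LBD38 and LBD39, given above, AT1G25550 at -0.36 ± 0.12 and TGA4, for a bZIP factor of nitrate responses, at -0.24 ± 0.024. On the authors' log ratios 3 of the 23 uptake and assimilation genes fell, and with the 360 min arrays alone 3 did.

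Type-A response regulators dampen cytokinin signalling, and their genes are turned on by cytokinin and, in many settings, by nitrate supply. Of 9 tested 3 fell and 0 rose (33.3% called), with a median of -0.26, -0.25 in replicate 1 and -0.31 in replicate 2. ARR4 had ratios of -0.45, -0.63, -0.84 and -0.98 and fell, with -0.72 ± 0.26 (adjusted p = 0.0144), ARR9 with -0.49 ± 0.22 and ARR6 with -0.26 ± 0.013. ARR5 and ARR7 were negative on all 4 arrays but did not pass, with -0.36 ± 0.067 and -0.35 ± 0.012 (for the dim ARR5 -0.95 on the authors' log ratios), and ARR8, ARR15, ARR16 and ARR17 ran from -0.064 for ARR15 to 0.099 for ARR8. Of 18 genes for cytokinin receptors, type-B factors and metabolism 2 fell and 0 rose (11.1% called, against 7.3% of all genes). They were the receptor gene AHK4 with -0.34 ± 0.029 and the cytokinin response factor gene CRF2 with -0.53 ± 0.11. None of the type-A genes passed on the authors' log ratios or with the 360 min arrays alone, and 1 did when arrays were centred on the median.

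PATL2, for a patellin, a phosphoinositide-binding protein of membrane traffic, had 212, 198, 179 and 183 in wounded shoots, against 512, 431, 504 and 470.1 in unwounded shoots, with no overlap and a log2 fold of -1.31 ± 0.16 (adjusted p = 0.00196). Xyloglucan endotransglucosylases cut and rejoin the xyloglucan tethers of growing walls. Of 31 tested genes 11 fell and 0 rose (35.5% called, against 7.3% of all genes). TCH4 had 299, 240.1, 216 and 202 in wounded shoots, against 579, 476, 432 and 445 in unwounded shoots, with a log2 fold of -1.02 ± 0.071 (adjusted p = 0.00199). Every wounded value lay below every unwounded one. XTH24 fell with -1.04 ± 0.38, EXGT-A3 with -0.85 ± 0.18 and XTH4 with -0.78 ± 0.17, whereas the family's median was -0.025. The called members ran from -1.04 for XTH24 to -0.32 for XTH7.

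Other wall genes fell singly. EXLA1, for an expansin-like protein, had 174, 138, 126 and 149.8 in wounded shoots, against 406, 266, 308 and 313 in unwounded shoots, with no overlap and a log2 fold of -1.13 ± 0.066 (adjusted p = 0.00436). Of 30 expansin-type genes 3 fell and 1 rose (13.3% called, against 7.3% of all genes). EXPA1, for a wall-loosening expansin, fell with -0.82 ± 0.11, and EXPA16 rose by 0.35 ± 0.027. Of 16 fasciclin-like arabinogalactan protein genes 2 fell (12.5% called), FLA9 with -1.07 ± 0.13 and FLA13 with -0.55 ± 0.11. AGP17, for an arabinogalactan protein, fell with -0.99 ± 0.36. BXL1, for a xylosidase and arabinosidase of the wall, fell with -1.04 in 1 usable replicate and had -0.88 with the outlier spot kept. GASA1 and GASA6, for gibberellin-regulated peptides, fell with -1.06 ± 0.37 and -0.75 ± 0.097, 2 of 6 tested (33.3% called). Of the xyloglucan endotransglucosylase genes 3 passed on the authors' log ratios, and 1 did with the 360 min arrays alone.

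Aquaporins let water across membranes, and 5 of 35 tested fell and 0 rose (14.3% called, against 7.3% of all genes). DELTA-TIP, for a channel of the vacuolar membrane, had ratios of -0.92, -0.87, -1.29 and -0.69 and fell with -0.94 ± 0.067 (adjusted p = 0.0119), TIP2 with -0.52 ± 0.0027 and PIP2A, for a channel of the plasma membrane, with -0.40 ± 0.12. Of 16 genes of cuticular wax 5 fell and 0 rose (31.2% called). KCS1, for an elongase of very long fatty acids, fell with -0.72 ± 0.088, CER2 with -0.40 ± 0.031 and CER6, for the main wax elongase, with -0.33 ± 0.00062. Among 14 brassinosteroid and gibberellin growth genes 3 fell and 1 rose (28.6% called). The growth factor genes HBI1 and BEE1 fell with -0.58 ± 0.29 and -0.41 ± 0.16 and the synthesis gene DWF4 with -0.19 ± 0.044. PRE1 rose by 0.40 ± 0.0014. None of the aquaporin genes and 1 of the wax genes passed on the authors' log ratios. None of the growth genes passed on those ratios or with the 360 min arrays alone, and under median centring 1 fell and 0 rose.

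A small change ran through the genes for cytosolic ribosomal proteins, the protein subunits of the ribosomes that translate nuclear messages. Of 132 tested 60 fell and 0 rose, against 4.22% of all genes that fell, and the median log2 fold was -0.22. The medians on the 4 arrays were -0.22, -0.15, -0.24 and -0.21, and they were -0.19 and -0.24 in the replicates. Ratios were negative on all 4 arrays for 98 members (74.2%), against 13.8% of all genes. Both subunits took part, with 40 of 78 large-subunit genes lower at a median of -0.23 and 19 of 53 small-subunit genes lower at a median of -0.19. The split by subunit was made after values were seen.

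Single ribosomal genes changed little in size. AT5G60670, described as a large-subunit protein of the L12 type, had 1303, 1133, 1052 and 1006 in wounded shoots, against 1784, 1511, 1577 and 1449.8 in unwounded shoots. Its groups did not overlap, and it fell with -0.50 ± 0.086 (limma, adjusted p = 0.00796). AT3G57490, for a small-subunit protein of the S2 type, fell with -0.46 ± 0.057 and AT3G10610, of the S17 type, with -0.40 ± 0.017. Ribosomal proteins of plastids and mitochondria, listed after these values were seen, had 1 call among 46 tested: NFD3 fell, with -0.22 ± 0.054, the median was -0.020 and 10 were negative on all 4 arrays. The difference between both sets was not tested. Many ribosomal genes come in near-identical copies, whose signals on oligonucleotide probes may be shared. None of the 132 passed on the authors' log ratios, whose median for the list was -0.23, and none with the 360 min arrays alone.

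Of 16 iron genes 4 rose and 1 fell (31.2% called, against 7.3% of all genes): the factor genes BHLH101 and bHLH39, known to rise when iron is short, by 0.59 ± 0.20 and 0.53 ± 0.22, the iron sensor gene BTS by 0.45 ± 0.21, the phloem transporter gene OPT3 by 0.39 ± 0.042, and FER3, for an iron-storing ferritin, with -0.53 ± 0.13. Among 17 clock genes 2 rose and 1 fell (17.6% called). LNK1 rose by 0.72 ± 0.037, with ratios of 0.75, 0.73, 0.69 and 0.68, ELF4 rose by 0.19 ± 0.027 and RVE2 fell with -0.45 ± 0.0070. Of 9 sugar and starch genes 3 rose (33.3%), APL3, for a subunit of the starch synthesis enzyme ADP-glucose pyrophosphorylase, by 0.98 ± 0.33 and the beta-amylase genes BAM3 and BAM1 by 0.60 ± 0.32 and 0.54 ± 0.14. In the list of 16 genes of sugar starvation and trehalose phosphate, TPS5 rose by 0.54 ± 0.097 and 4 fell (31.2% called), among them DIN10 with -1.03 in 1 usable replicate and KFB20, a Kelch F-box gene, with -0.45 ± 0.13. Glutathione transferase genes had 6 higher and 1 lower of 38 (18.4% called), with GSTU20 at 0.71 ± 0.13 and GSTF9 at 0.39 ± 0.067 beside GSTF12. None of the iron or of the sugar and starch genes passed on the authors' log ratios.

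The lists of salicylate, auxin and WRKY genes had at most 1 call each. Of 10 salicylate genes 0 rose and 0 fell by limma. Of 26 Aux/IAA genes, for repressors of auxin signalling, IAA18 fell with -0.27 ± 0.12. Of 57 SAUR genes, for small proteins of auxin-driven growth, AT1G72430 fell with -0.74 ± 0.23, and of 65 WRKY genes WRKY33, for a defence factor, rose by 0.47 ± 0.27. Outside the lists, AT1G67360, described as a stress related protein, rose by 1.57 ± 0.35, and AT4G16563, EXL5 and the lectin gene AT3G16530 fell with -1.13 ± 0.23, -1.16 and -0.97 ± 0.31, EXL5 in 1 usable replicate. With its outlier spot kept EXL5 had -0.81 and did not pass.

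Set against 30 min, 8 of 15 jasmonate synthesis genes and 10 of 17 signalling genes had lower folds at 360 min, and 7 of 8 late anthocyanin genes and both storage protein genes had higher ones. Over all genes, the fold differed between the times for 1414 of 19145 genes (7.39%, limma, Benjamini-Hochberg adjusted p under 0.05 for the contrast), higher at 360 min for 490 and lower for 924. Both times were measured against their own unwounded shoots. Of the 590 genes higher at 360 min, 267 had a higher fold than at 30 min by this test and 39 a lower one, and of the 808 lower at 360 min, 390 had a lower fold and 8 a higher one. At 30 min 1282 genes changed (6.69%), of which 867 rose (4.52%) and 415 fell (2.16%), and 273 genes changed at both times. Of these 110 were higher at both, 61 lower at both, 37 higher at 360 min and lower at 30 min, and 65 lower at 360 min and higher at 30 min.

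Among the jasmonate signalling and synthesis genes, MYC2 had a log2 fold of 0.72 at 360 min and 3.62 at 30 min, JAZ1 0.54 and 3.46, and OPCL1 0.49 and 3.35. By the same test, 5 of 9 turnover genes also had a lower fold at 360 min, and 0 genes of the 3 lists had a higher one. LOX2, with 1.73 at 360 min and 1.53 at 30 min, showed no difference that passed (adjusted p = 0.377). Of 22 outputs 8 had a higher fold at 360 min, led by VSP1 with 3.32 at 360 min and 1.62 at 30 min (difference 1.70, adjusted p = 0.0162). CLH1 was the 1 output with a lower fold at 360 min, 0.70 against 2.58 at 30 min.

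The counts that follow are again of differences that passed. They stand beside 490 higher and 924 lower folds at 360 min among all 19145 genes. The late anthocyanin genes had 7 of 8 members with a higher fold at 360 min, and 0 of the 8 had passed at 30 min in either direction, where DFR had -0.084 and LDOX -0.064. PAP1, their activator, had 1.29 at 360 min and 0.97 at 30 min, and the difference did not pass (adjusted p = 0.126). Heat shock factor genes had 6 of 18 with a higher fold at 360 min, larger chaperones 9 of 26 and small heat shock protein genes 5 of 14. Among the cytosolic ribosomal genes 41 of 132 had a lower fold at 360 min, and 0 passed at 30 min, where the list median was 0.030. Nitrate uptake and assimilation genes had 8 of 23 with a lower fold at 360 min, NIA1 with -1.44 at 360 min and 0.13 at 30 min. Among 57 SAUR genes the fold at 360 min exceeded that at 30 min for 12 and was below it for 3. At 30 min 4 of them had risen and 15 fallen, beside 4.52% and 2.16% of all genes.

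The lowest difference between times among the genes named by the rule was that of TCH4, a gene known for its induction by touch, which fell at 360 min with -1.02 and rose at 30 min with 2.62. Its mean signals were 236 in wounded and 480.0 in unwounded shoots at 360 min, against 2346 and 383 at 30 min. KCS1, PATL2, EXLA1 and SUR1 also fell at 360 min and rose at 30 min, with 30 min folds of 0.71, 0.49, 0.48 and 1.00. In the opposite order, AT1G26800 and AT4G14270 rose at 360 min with 1.06 ± 0.0053 and 0.87 ± 0.045 and fell at 30 min with -0.74 and -0.92. The cytochrome P450 gene CYP96A4 rose by 0.27 at 360 min and by 2.53 at 30 min. On the authors' log ratios 716 genes differed between the times, and 169 and 176 did without replicate 1 or replicate 2 at 30 min.

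**Figure D5:**
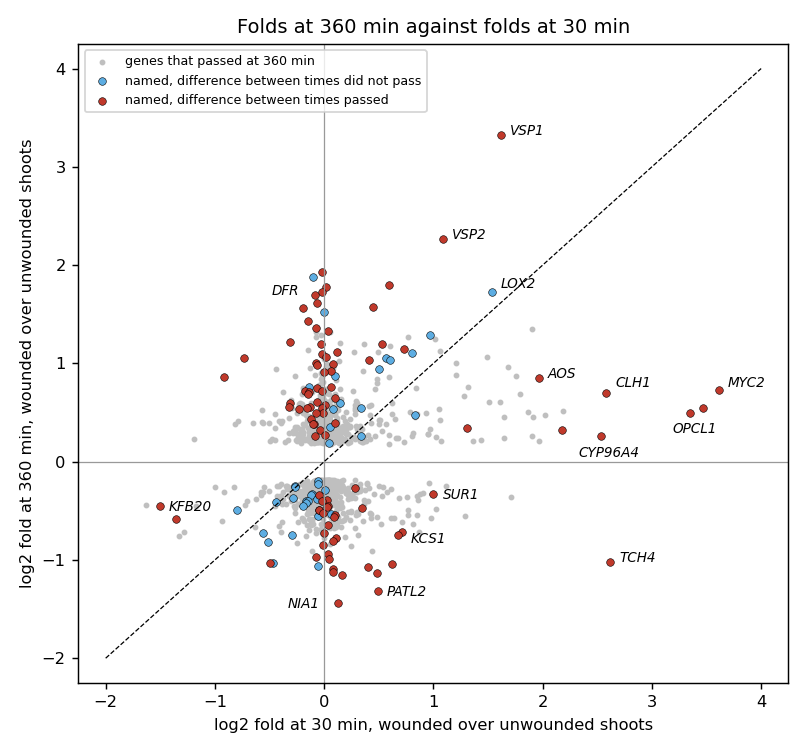
Log2 folds of wounded over unwounded shoots at 360 min (y axis) against those at 30 min (x axis) for the genes that passed at 360 min, with named genes in colour by whether the difference between times passed. The dashed line is equality: VSP1 lies above it, at 3.32 against 1.62, LOX2 near it, and MYC2 and TCH4 far below it.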

How the data were processed

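RNA of wounded and unwounded shoots was measured on 8 two-colour arrays with 22575 spots, of which 1075 are controls. The deposited intensity values are mean spot signals and median local backgrounds on a linear scale, extracted from the scans, per the file headers, with the software Agilent Feature Extraction, whose version the submitters' processing notes give as 7.1.1. The deposited log10 ratios are Cy5 over Cy3 of the same software's background-subtracted, dye-normalized signals, per the file headers. They served as an alternative. The genome build was not given in the sources used here. Gene names came from the files' locus codes, matched to RefSeq symbols of assembly TAIR10.1.

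From the intensities, log ratios were computed with limma 3.58.1 in R 4.3.3: normexp background correction with offset 50, then loess within arrays with controls and outlier spots at weight 0. Dye-swapped ratios were turned to wounded over unwounded. Outlier spots were left out of the folds but kept in the values and signs given per array. A dye pair was averaged to 1 replicate, which needs both spots. Kept were 19178 of 21500 gene probes, those well above background (2.6 times its SD, per the file headers) in every measurement of at least 1 of the 4 conditions. The linear model had a coefficient for each time over both times' replicates, with eBayes and Benjamini-Hochberg adjustment at 0.05. Signals per channel were taken after loess and Aquantile scaling. No column of per-sample values was left aside. The script was tested on simulated data.

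Genes were named by a rule: the 15 highest and 15 lowest folds past the threshold with 1 sign on all 4 arrays, up to 3 members of each list with the smallest adjusted p, all members of 5 lists (late anthocyanin enzymes, heat shock factors, type-A response regulators, nitrate uptake and assimilation, jasmonate output), and the 5 highest and 5 lowest differences between times. Other genes named in the text were chosen after their values were seen. The members and lists were chosen with earlier results of these data known, and the sub-lists by subunit, antenna and organelle were added after values were seen. Alternatives covered background correction, normalization, filters, the authors' ratios, the samples fitted, the prior, the replicate block and single replicates or arrays left out. A gene saturated in both channels on all 4 arrays was given no fold. The result of 1 gene named by the rule is not reported here.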

Additional observations from a re-analysis of the deposited data

Results flagged for a closer look

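Of the genes named by rule and reported here, 95 had a log2 fold at 360 min that differed from that at 30 min, with the contrast of both times past the limma threshold (Benjamini-Hochberg adjusted p under 0.05). Over all genes 7.39% differed. The rule picked genes partly by extreme folds at 360 min and by this contrast, so the 95 do not measure how common a difference is. The values below are the log2 fold at 360 min minus that at 30 min, so a positive value means a higher fold at 360 min. For CYP96A4 and all jasmonate genes with a negative value, the fold at 30 min was the larger rise.

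Among jasmonate genes, the differences were -2.92 for JAZ1, -2.89 for MYC2, -2.86 for OPCL1, -1.88 for CLH1, -1.85 for JAM1 and -1.12 for AOS. Jasmonate outputs on the other side were 1.70 for VSP1, 1.21 for BGLU18, 1.18 for VSP2, 0.70 for ESP, 0.67 for TSA1, 0.55 for MBP1, 0.42 for JAL35 and 0.26 for MBP2. Pigment genes differed by 1.78 for DFR, 1.76 for AT4G22870, 1.68 for LDOX, 1.58 for UF3GT, 1.53 for GSTF12, 0.81 for AT5MAT, 0.57 for UGT78D2, 0.57 for F3H, 0.51 for F3'H, 0.48 for CHIL and 0.34 for scpl10. Chaperone genes differed by 1.95 for AT1G71000, 1.76 for AT1G52560, 1.74 for ATHSP22.0, 1.44 for AT5G37670, 1.23 for AT1G59860, 1.04 for HSP101, 1.01 for AT2G20560 and 0.86 for AT1G07400. AT1G52560 and ATHSP22.0 were dim at 30 min, with mean wounded and unwounded signals of 63.9 and 63.3 and of 80.2 and 81.1. Their contrasts pool 30 min SDs of 0.027 and 0.0067 with 360 min SDs of 0.73 and 0.83. Heat shock factors and their partners differed by 1.303 for HSFA2, 1.12 for MBF1C, 1.08 for HSFA7A, 0.92 for HSFA7B, 0.91 for DREB2A and 0.62 for HSFB2A.

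In nitrogen metabolism the differences were -1.56 for NIA1, -1.16 for NIA2, -0.89 for NIR1, -0.81 for GDH2, -0.73 for ASN2, -0.68 for UPM1, -0.65 for GLT1 and -0.49 for G6PD3. Wall, growth and surface genes differed by -3.64 for TCH4, -1.80 for PATL2, -1.66 for XTH24, -1.61 for EXLA1, -1.47 for FLA9, -1.43 for KCS1, -1.32 for EXL5, -1.03 for AGP17, -0.89 for XTH4, -0.84 for EXGT-A3, -0.65 for FLA13, -0.54 for BXL1 and -0.41 for ELP. Aquaporin genes differed by -0.97 for DELTA-TIP and -0.51 for TIP2, and cytosolic ribosomal protein genes by -0.48 for AT3G57490, -0.45 for AT5G60670 and -0.38 for AT3G10610. Glucosinolate and glutathione genes differed by -1.33 for SUR1, -0.97 for CYP79B2, 0.85 for GSTU20, 0.69 for IMD1, 0.67 for MAM1, 0.36 for IPMI2 and 0.30 for GSTF9.

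The remaining genes, which belong to hormone, sugar, iron, clock, cold and antenna lists or to none, had differences of 1.79 for AT1G26800, 1.79 for AT4G14270, 1.12 for AT1G67360, 1.06 for KFB20, 1.05 for APL3, 0.90 for BHLH101, 0.90 for COR413IM1, 0.88 for ABF3, 0.83 for CAB2, 0.77 for HBI1 and 0.76 for bHLH39. Further ones had 0.74 for LNK1, 0.70 for TPS5, 0.56 for LHB1B1, 0.55 for LHCB4.2, 0.48 for OPT3, 0.34 for ARR8, -0.30 for AHK4, -0.55 for IAA18, -0.89 for AT3G16530, -1.21 for AT4G16563, -1.42 for AT1G72430 and -2.26 for CYP96A4.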

How the results depend on the processing

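Each count was recomputed under 14 planned settings and 1 added after the data were seen, the removal of the replicate 1 array with wounded RNA in Cy3, except that the 360 min arrays alone give no difference between times. The number of genes changed at 360 min was 1398, and became 710 with a normexp offset of 10, 130 on the authors' log ratios (56.9% higher, against 42.2%) and 79 with the 360 min arrays fitted alone (68.4% higher). The 79 and the 130 were all among the 1398. Leaving out 1 replicate at either time gave 79 to 1317 genes, with 62.6% higher without replicate 2 at 360 min, and leaving out a 30 min replicate gives the same fit as the 360 min arrays alone. Without the replicate 1 array with wounded RNA in Cy3, 1923 genes passed. The number of genes differing between times, 1414, became 716 on the authors' log ratios and ran from 169 to 1720 with a replicate left out, with 169 and 176 without replicate 1 or 2 at 30 min. The replicate block gave 1206 genes at 360 min and 1272 differing between times. The replicate 1 minus replicate 2 differences of both times correlated at -0.032 across 17444 genes, so the numbers were taken as names only. Of 134 named genes that passed, 45 did on the authors' log ratios and 40 with the 360 min arrays alone, while all 134 kept their sign under these settings. List medians turned negative for fasciclin-like arabinogalactan genes under median centring (-0.039), the replicate block (-0.00017) and without replicate 1 at 360 min (-0.0016), and for photosystem II subunits under median centring (-0.017). The cause was not tested. The slide as a block was not run, since each slide held 1 array. With 2 replicates and 2 residual degrees of freedom, calls lean on the variance that limma shares across genes, and small folds near the threshold move with the setting. A fold of a dim gene is limited by its signal over background.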

Other observations

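Under every alternative that gave a value, 60 genes passed (43 higher and 17 lower). For 58 of them that was all 15 alternatives, and BGLU18 and AT1G03495 had a value in 14. Some of the 60 are outside the lists, and those named here were chosen after their values were seen. ARGAH2, for an arginase of nitrogen recycling and defence, rose by 1.24 ± 0.071 on the log2 scale (SD, n = 2). SR45a, for a splicing factor of stress responses, rose by 1.21 ± 0.025, and DHAR1, for a dehydroascorbate reductase that recycles vitamin C, by 1.07 ± 0.051. NF-YC2, a subunit gene of the NF-Y factor, rose by 0.97 ± 0.14, and PAO2, for a polyamine oxidase, by 0.86 ± 0.035. HPL1, for a hydroperoxide lyase, an enzyme type that makes leaf volatiles from lipid hydroperoxides, rose by 0.76 ± 0.078. APR1, for the reductase of sulfate assimilation, rose by 0.58 ± 0.0097, and AT1G52000, a jacalin-type gene, by 1.00 ± 0.026. Among the genes that fell were PCAP1, for a calcium-binding protein of the plasma membrane, with -0.83 ± 0.031, and TTL3, for a tetratricopeptide protein of growth responses, with -0.61 ± 0.023.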
